A study of Arabidopsis thaliana with 36 samples.

Results

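Unselected plastid DNA was measured in 18 of the 36 sequencing libraries of a study of chloroplast chromatin in Arabidopsis thaliana. These 18 are the inputs, in which DNA of a formaldehyde-fixed chloroplast preparation was sequenced without immunoprecipitation. They were chosen by library kind alone, and the other 18 libraries, made by chromatin immunoprecipitation (ChIP), serve only for comparison. The 6 leaf inputs came from rosette leaves of wild type Col0 plants aged 14 days and grown on soil in a cycle of light and dark. Of these, 3 were from plants collected 2 h into the light period (Day) and 3 from plants kept dark for 24 h (Night). The 12 seedling inputs came from untreated plants aged 4 days (4 to 5 in the protocol) on MS medium plates in continuous light, with 50 seedlings pooled per sample. They comprise 3 libraries each of the lines chlm, chl27, sig2-2 and their comparison line Col0. The line names were read from titles and cell line entries, because the genotype entry of every seedling library reads wild type. SIG2 is a nucleus-encoded sigma factor of the plastid RNA polymerase, and CHL27 and CHLM are nucleus-encoded enzymes of chlorophyll synthesis. The tables hold only the plastid genome, so neither the lines nor the tissues could be checked on nuclear genes.

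The plastid genome is a small chromosome present in very many copies per cell, packed with protein into nucleoids that lie at the thylakoid and envelope membranes. It is divided into a large single copy region, a small single copy region and an inverted repeat whose identical copies separate them. The repeat carries the ribosomal RNA operon, and the small single copy region carries most genes of the NDH complex, which passes electrons into the plastoquinone pool. An input library gives the baseline against which binding to this DNA is read, and its profile reflects how much of each stretch was present, recovered and sequenced.

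Values are the coverage of 154477 positions as deposited, on TAIR10 coordinates per the leaf table, with gene positions from the RefSeq table of TAIR10.1. Mean coverage per position was 1017 to 1395 reads in the leaf inputs and 1132 to 3165 in the seedling inputs. Within a library, the mean coverage of a stretch was divided by the mean coverage of the plastid genome, so that a relative level of 1 is the plastid average. Reads from the repeat cannot be assigned to a copy, and both copies (84172 to 110436 and 128213 to 154477) were merged. The large single copy region covers 1 to 84171 and the small single copy region 110437 to 128212. The rRNA operon was taken as 101012 to 107701 with its mirrored copy at 130948 to 137637. Perfectly even coverage would put 34.0% of the total in the repeat and 8.66% in the operon. The labels do not say whether replicates came from separate plant cultures, so errors and p-values measure the spread between these libraries only. Leaf chloroplasts were isolated before fixation and seedlings were fixed before homogenization, and the tables of leaves and seedlings are separate. Age, growth conditions, preparation and table therefore cannot be told apart, and leaf and seedling values are set side by side without a test.

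**Figure D1:**
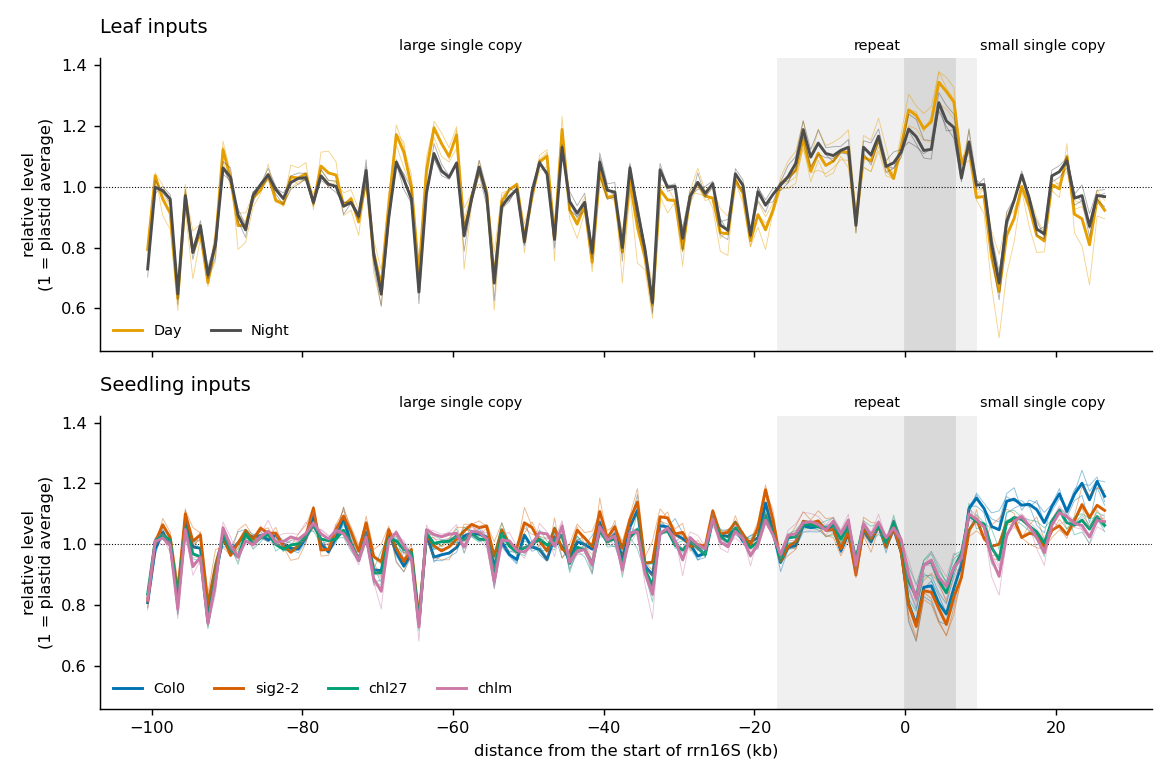
Relative level (1 = plastid average) of 128 bins of 1 kb against the distance from the start of rrn16S in kb, for the leaf inputs (top) and the seedling inputs (bottom). Thin lines are single libraries and thick lines are means of 3 libraries, light shading marks the repeat (copies merged) and dark shading the rRNA operon, which lies above 1 in the leaf inputs and below 1 in the seedling inputs.

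The rRNA operon stood on opposite sides of the plastid average in leaves and seedlings. It held 11.04%, 10.5% and 11.3% of the coverage in the Day inputs and 10.1%, 10.7% and 10.1% in the Night inputs. The Col0 seedling inputs held 7.36%, 7.08% and 6.58% there and the sig2-2 inputs 6.60%, 7.51% and 6.48%. The shares were 7.86%, 7.99% and 7.17% for chl27 and 8.04%, 7.51% and 7.70% for chlm. Every leaf input lay above the 8.66% of even coverage and every seedling input below it, without overlap. The operon encodes the RNA core of the plastid ribosome and, in its spacer, the tRNAs trnI and trnA.

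Leaf and seedling inputs also differed within the repeat, where the ratio of operon level to the level of the rest of the repeat needs no plastid total. That ratio was 1.17 ± 0.0352 (SD, n = 3) in Day and 1.09 ± 0.0473 in Night inputs. Seedling values were 0.862 ± 0.0360 for chlm, 0.857 ± 0.0418 for chl27, 0.795 ± 0.0384 for Col0 and 0.782 ± 0.0680 for sig2-2. The 6 leaf libraries ran from 1.04 to 1.21 and the 12 seedling libraries from 0.735 to 0.897. The repeat outside the operon was above the plastid average in all 6 leaf inputs, at 1.05 to 1.13, and lay between 0.997 and 1.05 in the seedling inputs.

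The genes of the operon showed the same order. rrn23S (104691 to 107500), the RNA of the large ribosomal subunit, had relative levels of 1.34, 1.26 and 1.36 in Day and 1.21, 1.29 and 1.22 in Night inputs, against 0.729 to 0.926 in the seedlings with a median of 0.843. This is a leaf minus seedling difference of 0.63 in mean log2 level, or 1.54-fold. rrn16S (101012 to 102502), the RNA of the small subunit, ran from 1.16 to 1.32 in leaves and from 0.717 to 0.929 in seedlings, a difference of 0.59. The short rrn4.5S (107599 to 107701) and the rRNA gene ArthCr091 (130580 to 130700), which lies just outside the operon as bounded here, differed by 0.21 and 0.28. The spacer genes trnA (103665 to 104538, alanine) and trnI (ArthCt107, 102801 to 103601, isoleucine) differed by 0.42 and 0.39. For all 4 rRNA genes and both spacer tRNA genes the 6 leaf libraries lay above the 12 seedling libraries. The same held for all 7 bins of 1 kb that touch the operon.

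Over the whole genome such separation was common: the leaf and seedling libraries did not overlap for 50% of the 128 bins and 39.8% of the 113 genes. Leaves were higher in 19 bins (14.8%) and 20 genes (17.7%) and lower in 45 bins (35.2%) and 25 genes (22.1%). The split depends on the scaling. With libraries scaled to coverage outside the repeat, the median difference of all genes shifted from −0.01 to 0.09 (log2) and the split became 46 higher and 7 lower, and 48 higher and 23 lower among bins. The operon bins and rRNA genes kept their direction without overlap under this scaling and with libraries centred on the median feature. The bins with the largest positive differences all lay in the operon, led by 106001 to 107000 at 0.66, 105001 to 106000 at 0.64 and 102001 to 103000 at 0.63.

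**Figure D2:**
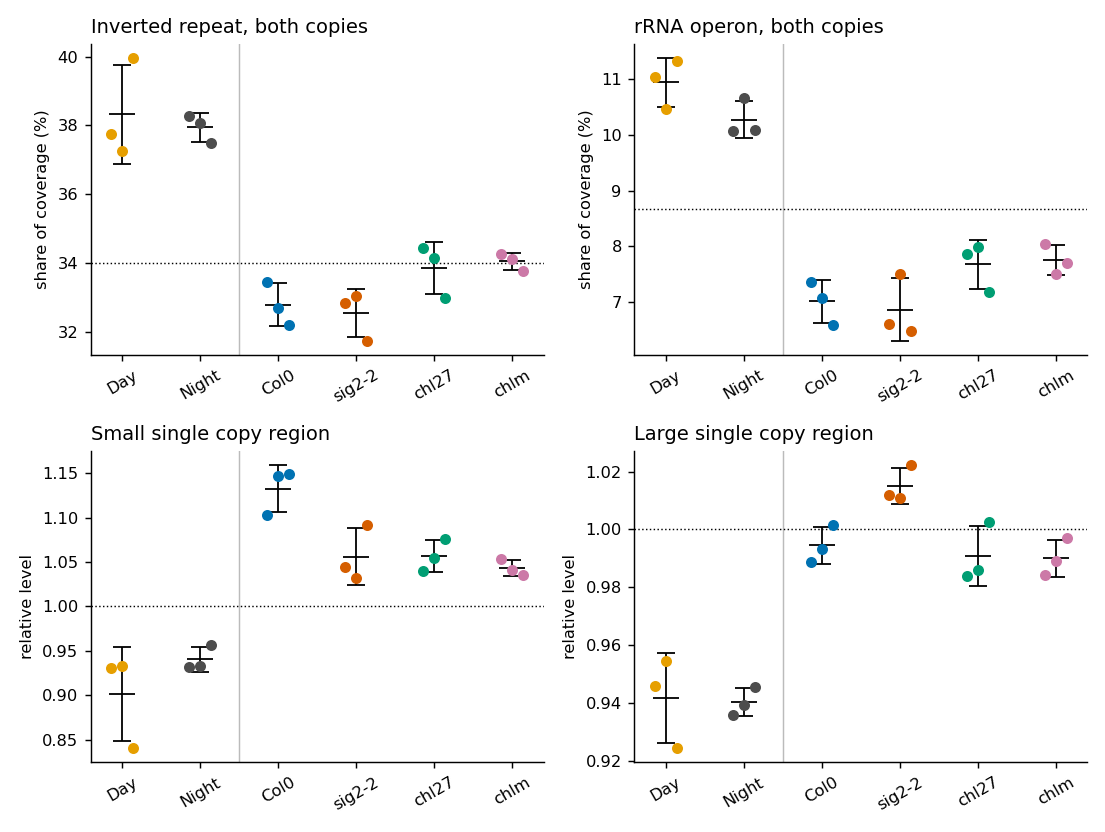
Share of total coverage in the inverted repeat and in the rRNA operon (%, top) and relative level of the single copy regions (bottom) for each input library. Points are libraries, bars are the mean ± SD of 3, the dotted line is the value of even coverage and the grey vertical line separates the leaf table from the seedling table. Leaf inputs hold more coverage in the repeat and less in either single copy region than any seedling input.

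The repeat as a whole took 37.7%, 37.3% and 40.0% of coverage in Day and 38.3%, 38.1% and 37.5% in Night inputs. Among seedlings, Col0 had 33.4%, 32.7% and 32.2% and sig2-2 had 32.8%, 33.0% and 31.7%. The chl27 inputs had 34.4%, 34.1% and 33.0% and the chlm inputs 34.2%, 34.1% and 33.8%. All leaf libraries were above the 34.0% of even coverage by over 3 percentage points, and the seedling libraries lay on either side of it. Day replicate 3 stood apart from the other leaf inputs. It had the highest repeat share, the lowest level of the small single copy region (0.841, against 0.931 to 0.956 in the other 5) and the most uneven profile, with a coefficient of variation over bins of 19.01% against 11.3% to 14.7%.

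Of the 4 regional measures, the small single copy level had the largest share of its variation between seedling lines. The region's relative level was 0.931, 0.933 and 0.841 in Day and 0.932, 0.933 and 0.956 in Night inputs, all below the plastid average. In seedlings it was above the average, at 1.10, 1.15 and 1.15 for Col0 and 1.04, 1.03 and 1.09 for sig2-2. It was 1.04, 1.05 and 1.08 for chl27 and 1.05, 1.04 and 1.04 for chlm. Every Col0 library lay above every library of the other lines. The ratio of small to large single copy level, which does not involve the repeat, was 0.909 to 1.01 in leaves, 1.12 to 1.15 in Col0 seedlings and 1.02 to 1.07 in the other lines.

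An exact permutation test of the sum of squares between all 4 lines gave p = 0.0159 for the small single copy level (369600 arrangements, 0.0379 after Benjamini-Hochberg adjustment over 4 regional measures). Of the sum of squares, 78.1% lay between lines. The same exact permutation test gave p = 0.0190 (adjusted 0.0379) for the large single copy level, p = 0.0464 (adjusted 0.0618) for the repeat share and p = 0.0800 (adjusted 0.0800) for the operon share, which became 0.0301 without sig2-2 replicate 2. For the large single copy level, sig2-2 was highest at 1.015 ± 0.00622 (SD, n = 3), and Col0 (0.994), chl27 (0.991) and chlm (0.990) had SDs of 0.00652, 0.0102 and 0.00638. Without sig2-2 replicate 3 its exact p was 0.0721. Line by line, 3 libraries against 3 cannot give an exact p below 0.1, which was reached for the small single copy level in each of the 3 lines. It was also reached for the repeat and operon shares of chlm and for the large single copy level of sig2-2, each with an adjusted p of 0.267 over 16 tests. The repeat share of chl27 was 1.07 percentage points above Col0 with overlap (exact p = 0.2).

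Between Day and Night the 4 regional measures overlapped. The operon share was 10.9% ± 0.436 (SD, n = 3) by Day and 10.3% ± 0.334 at Night (exact p = 0.2). As a share of the repeat alone the operon differed by −1.495 percentage points, Night minus Day, without overlap (exact p = 0.1, the smallest that 3 against 3 allow). Its ratio to the rest of the repeat ran from 1.144 to 1.21 by Day and from 1.04 to 1.137 at Night. The repeat share was 38.3% ± 1.44 and 37.9% ± 0.418 (exact p = 0.9). The small single copy level was 0.901 ± 0.0527 and 0.940 ± 0.0137 (exact p = 0.2). The direction of the repeat share rested on Day replicate 3: without it, the Night share was higher by 0.448 percentage points, where with it the difference was −0.371.

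**Figure D3:**
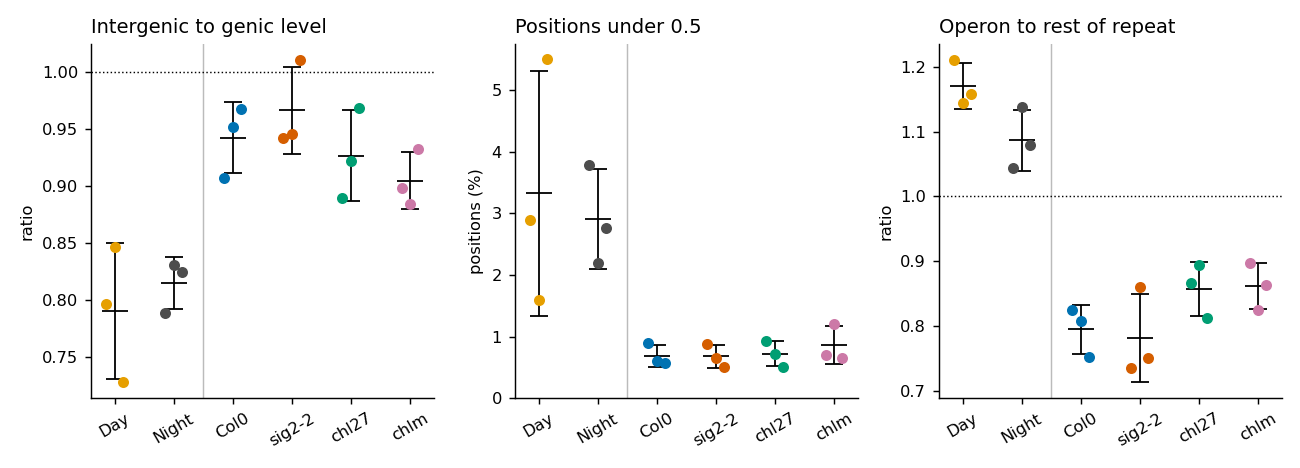
Ratio of intergenic to genic level in the single copy regions, percentage of positions with a relative level under 0.5, and ratio of operon to the rest of the repeat, for each input library. Points are libraries, bars are the mean ± SD of 3 and dotted lines mark a ratio of 1. The 6 leaf inputs lie outside the range of the 12 seedling inputs in each panel.

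Stretches between genes were thinner in the leaf inputs. Over 31856 single copy positions outside genes, the relative level was 0.724 to 0.846 in leaves and 0.916 to 1.04 in seedlings, while over 70091 positions within genes it was 0.991 to 1.01 and 1.02 to 1.04. The intergenic to genic ratio was 0.790 ± 0.0597 (SD, n = 3) in Day and 0.815 ± 0.0226 in Night inputs. It was 0.967 ± 0.0383 for sig2-2, 0.943 ± 0.0315 for Col0, 0.927 ± 0.0398 for chl27 and 0.905 ± 0.0250 for chlm. No leaf library overlapped a seedling library. This ratio does not depend on how a library was scaled.

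Deep dips were also more frequent in leaf inputs. Positions with a relative level under 0.5 were 1.59% to 5.50% of the genome in leaf inputs, with Day replicate 3 the highest and Day replicate 2 the lowest, and 0.502% to 1.21% in seedling inputs. Stretches of at least 50 bp in which all 6 leaf inputs were under 0.5 numbered 14 and totalled 2195 bp, and 13 of them overlapped no gene. In all 18 inputs there were 3 such stretches, with 581 bp. The longest of these, 7986 to 8258, lies between the serine tRNA gene trnS (ArthCt091) and the glycine tRNA gene trnG (ArthCt092), and its level was 0.0471 to 0.0826 in leaf and 0.0973 to 0.262 in seedling inputs. Another, 36223 to 36411, lies between psbZ, a small photosystem II subunit gene, and trnG (ArthCt116). The third is the start of the deposited sequence, 1 to 119, which holds the histidine tRNA gene trnH. A circular chromosome was laid out as a line, and the part that its ends play in that dip was not tested.

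The lowest bins differed in how far they were shared. The bin 36001 to 37000, with trnG (ArthCt116), the initiator methionine tRNA gene trnfM and the ribosomal protein gene rps14, was low in both sets, with medians of 0.685 in leaves and 0.745 in seedlings. The bin 8001 to 9000 was likewise low in both, at 0.695 and 0.759. By contrast, the bin 67001 to 68000, with psaJ, rpl33 and rps18, was at 0.590, 0.676 and 0.567 in Day and 0.584, 0.635 and 0.638 in Night inputs against 0.754 to 1.01 in seedlings. The bin 113001 to 114000, with the ribosomal protein gene rpl32, was at 0.503 to 0.778 in leaves and 0.833 to 1.11 in seedlings. These last bins gave the lowest leaf minus seedling differences of the 128, −0.52 and −0.55, followed by 31001 to 32000 with the threonine tRNA gene trnT at −0.45. In these 3 bins every leaf library lay below every seedling library.

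**Figure D4:**
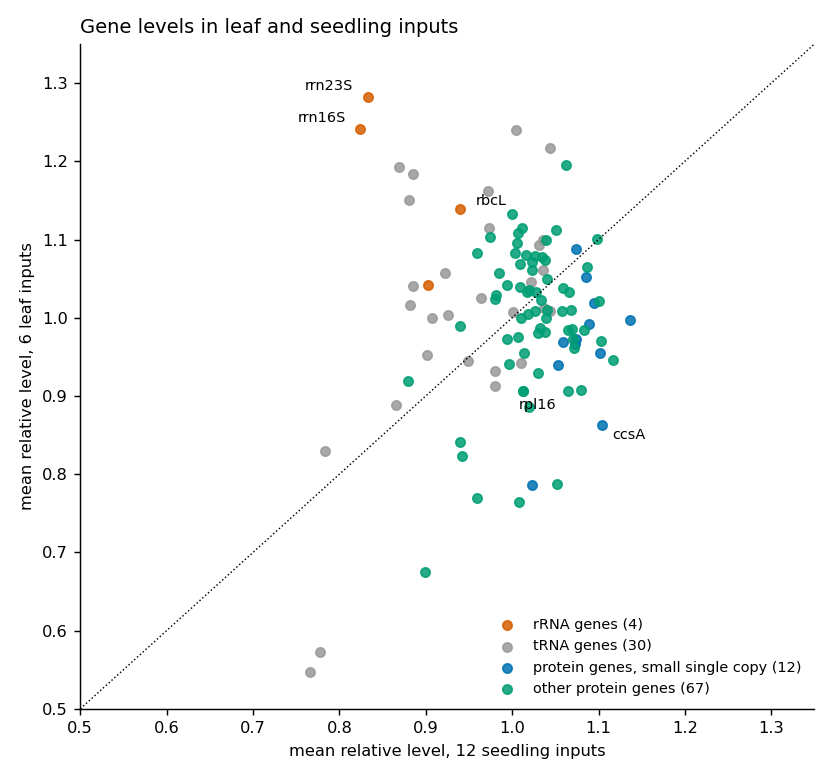
Mean relative level of 112 of 113 genes in the 6 leaf inputs against the 12 seedling inputs, coloured by gene kind, with a dotted line of equal level. The gene trnH at the start of the sequence lies outside the axes at 0.123 and 0.168. rRNA genes lie above the line and ccsA and rpl16 below it.

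Among genes of at least 300 bp, those with the highest leaf levels besides rrn23S and rrn16S were rps7, trnA and trnI (ArthCt107), and those with low levels included ccsA, petD, rpl16 and clpP. In seedlings the order was nearly turned over at both ends: rrn16S, rrn23S, trnI (ArthCt107), trnA and ndhJ were lowest and ccsA, both ycf1 spans, ndhA and ndhD highest. ccsA (114461 to 115447), needed to attach haem to c-type cytochromes, was at 0.895, 0.888 and 0.752 in Day, 0.845, 0.899 and 0.898 in Night and 1.05 to 1.18 in seedling inputs. Its difference of −0.36 was the lowest of the named genes, and its leaf libraries stayed below all seedling libraries under each scaling.

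Other named genes moved less. rpl16, a protein of the large ribosomal subunit, differed by −0.23 without overlap under each scaling. The whole ycf1 (Arthcp087, 123884 to 129244), a component of the protein import apparatus of the inner envelope, differed by −0.21, petD of the cytochrome b6f complex by −0.21 and clpP, a protease subunit, by −0.16. These 3 did not overlap, but they did overlap when libraries were scaled outside the repeat. ndhE of the NDH complex differed by −0.17 with overlap. rbcL (54958 to 56397), the large subunit of Rubisco, differed by 0.18 and rps7 of the repeat by 0.17, both without overlap under each scaling. psbA (0.06), psaA (0.12), rpoB (0.02), accD (−0.08), ycf2 (0.08), ndhH (0.02) and ndhJ (0.07) overlapped, although psaA, rpoB, ycf2 and ndhJ did not when scaled outside the repeat. The sign of accD turned to 0.03 with scaling outside the repeat.

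By gene family, all 4 rRNA genes were higher in leaves without overlap (median 0.44, against −0.01 for all 113 genes). Of 30 tRNA genes 9 were higher and 1 lower (median 0.08), and of 15 photosystem II genes 3 were higher and 3 lower (0.05). Of 12 genes of the small ribosomal subunit 1 was higher and 6 lower (−0.09), of 9 of the large subunit 1 and 4 (−0.09), and of 6 of cytochrome b6f 0 and 3 (−0.08). Of 11 NDH genes 1 was lower (−0.10), as was 1 of 4 RNA polymerase genes (−0.04). Of 5 photosystem I genes 1 was higher and 2 were lower (−0.04), and 6 ATP synthase genes overlapped (0.05). With scaling outside the repeat the medians of both ribosomal protein groups, cytochrome b6f, NDH, RNA polymerase and photosystem I became positive, at 0.02, 0.02, 0.03, 0.00, 0.07 and 0.06 against 0.09 for all genes. Short genes share reads with their neighbours, which touches the 51 genes under 300 bp, 24 of them tRNA genes.

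**Figure D5:**
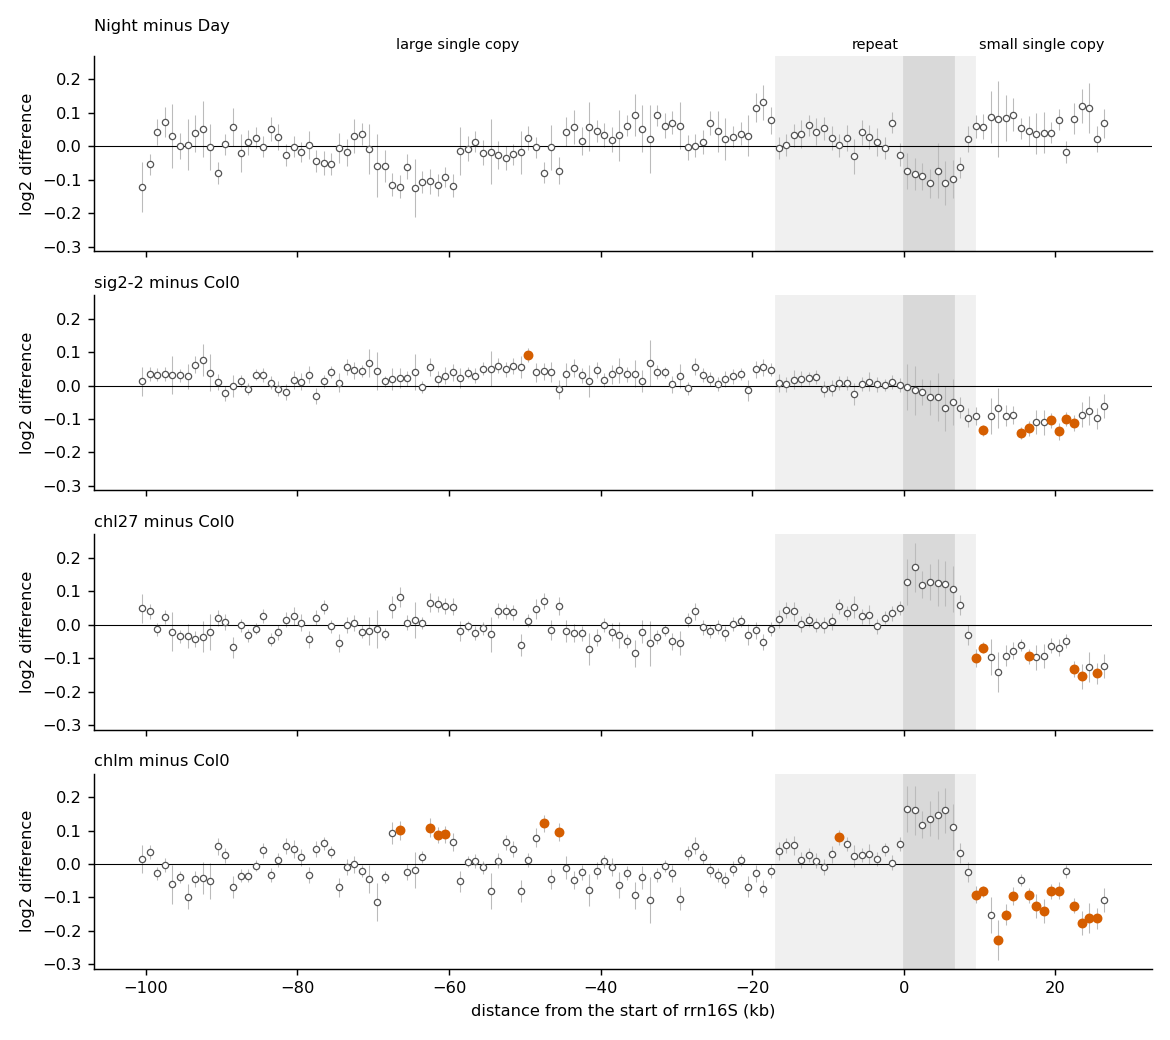
Difference in mean log2 relative level of 128 bins of 1 kb against the distance from the start of rrn16S in kb, for Night minus Day and for each line minus Col0. Bars are the SE of the limma fit, filled points have an adjusted p under 0.05, and shading marks the repeat (light) and the operon (dark). The lines lie below Col0 throughout the small single copy region at the right.

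Bin by bin, limma on the input libraries of a table called 0 of 128 bins (0%) between Night and Day, with 18 at an unadjusted p under 0.05 and a lowest adjusted p of 0.0664. Without Day replicate 2 there were 7 called bins, and without Day replicate 3 there were 8. Of the genes, 15 of 113 (13.3%) were lower at Night and 0 higher. Among those of at least 300 bp, trnA was 1.25, 1.17 and 1.29 by Day and 1.13, 1.16 and 1.10 at Night, a difference of −0.14 ± 0.04 (SE, limma adjusted p = 0.0194). The photosystem II antenna gene psbC (33720 to 35141) was 1.15, 1.08 and 1.15 by Day and 1.05, 1.04 and 1.01 at Night, −0.13 ± 0.03 (limma adjusted p = 0.0072). rps14 (36938 to 37240), for a protein of the small ribosomal subunit, was 1.19, 1.10 and 1.07 by Day and 0.976, 1.02 and 1.08 at Night, so its libraries overlapped (−0.13 ± 0.03, limma adjusted p = 0.0072).

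The other 12 genes were psbA and psbD of photosystem II, psaA and psaB of photosystem I, atpH of the ATP synthase and the tRNA genes trnC, trnY, trnE, trnG (ArthCt116), trnfM, trnR (ArthCt127) and ArthCt100, with log2 differences from −0.22 to −0.10. These calls depended on the fit: 0 genes were called without a trend of variance on the mean, 0 with scaling outside the repeat and 0 when the ChIP libraries shared the spread. Without Night replicate 1 there were 0 calls, without Night replicate 3 there were 4 and without Day replicate 1 there was 1. The 4 rRNA genes had differences of −0.09 to −0.07, and none was called.

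The sig2-2 inputs differed from Col0 in 8 of 128 bins (6.25%), 1 higher (0.781%) and 7 lower (5.47%), and all 7 lower bins lay among the 17 of the small single copy region. The median over those 17 was −0.10, against 0.02 over all bins. Of the genes 15 (13.3%) differed, 3 higher (2.65%) and 12 lower (10.6%). ndhD (115665 to 117167), a membrane subunit of the NDH complex, was 1.14, 1.13 and 1.15 in Col0 and 1.04, 1.03 and 1.05 in sig2-2 inputs, without overlap. The difference was −0.13 ± 0.02 (SE, limma adjusted p = 0.0007). ndhG (118377 to 118907) fell by 0.16 (adjusted p = 0.0060) and ndhI (119244 to 119762) by 0.12 (adjusted p = 0.0181), both on the log2 scale by limma. Of 11 NDH genes 7 were lower, all of them in the small single copy region, and the 4 outside it had positive differences. Of the 13 genes of that region 11 were lower. The valine tRNA gene trnV (ArthCt103, 51199 to 51871) was higher by 0.10 (limma adjusted p = 0.0227), but not with scaling outside the repeat or without Col0 replicate 2 or sig2-2 replicate 1. The ndhI call was lost without Col0 replicate 2 or sig2-2 replicate 3. Without Col0 replicate 2 there were 6 called genes, and called bins numbered 13 without Col0 replicate 1 and 15 without sig2-2 replicate 3.

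The chl27 inputs had 6 lower bins of 128 (4.69%) and 0 higher, 5 in the small single copy region and 1 across its edge with the repeat. The 3 lower genes (2.65% of 113) were ycf1 (Arthcp087), ndhF and the ribosomal protein gene rps15. ycf1 was 1.14, 1.17 and 1.19 in Col0 and 1.06, 1.09 and 1.07 in chl27 inputs, −0.12 ± 0.03 (SE, limma adjusted p = 0.0387). ndhF (110398 to 112638), another NDH membrane subunit, was 1.11, 1.13 and 1.14 against 1.05, 1.06 and 1.07, −0.08 ± 0.02 (limma adjusted p = 0.0317). The gene calls were lost, with counts of 0, without a trend of variance, with scaling outside the repeat, with centring, and without chl27 replicate 1, chl27 replicate 2, Col0 replicate 2 or Col0 replicate 3. Without chl27 replicate 3 there were 8. Bins numbered 0 without chl27 replicate 1 or Col0 replicate 2, 1 without chl27 replicate 2 or Col0 replicate 3, and 13 without Col0 replicate 1.

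The chlm inputs differed from Col0 in 21 bins (16.4%), 7 higher (5.47%) and 14 lower (10.9%). Of the lower bins 13 lay in the small single copy region and 1 across its edge. The lowest was 113001 to 114000, at −0.23 ± 0.06 (SE, limma adjusted p = 0.0214). Of the higher bins 6 lay in the large single copy region, among them 53001 to 54000 within atpB at 0.12 ± 0.03 (limma adjusted p = 0.0055). Among genes 15 (13.3%) differed, 5 higher (4.42%) and 10 lower (8.85%). ccsA was 1.14, 1.18 and 1.16 in Col0 and 1.08, 1.05 and 1.06 in chlm inputs, −0.12 ± 0.02 (limma adjusted p = 0.0063), and ycf1 (Arthcp087) and ndhI were lower by limma at adjusted p = 0.0101 and 0.0496.

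Higher in chlm were atpB (52660 to 54156), a catalytic subunit of the ATP synthase, at 1.07, 1.05 and 1.02 against 0.975, 0.962 and 0.959, and psaA, a photosystem I core protein gene. Their differences were 0.11 ± 0.02 and 0.08 ± 0.03 (limma adjusted p = 0.0086 and 0.0444). trnI (ArthCt107) in the operon was higher by 0.14 ± 0.04 (limma adjusted p = 0.0444), and the 4 rRNA genes, none of them called, by 0.06 to 0.16. The count of bins was 6 without Col0 replicate 2, 7 without chlm replicate 3, 8 without Col0 replicate 3, 10 without chlm replicate 2 and 35 without Col0 replicate 1. Genes numbered 5 without chlm replicate 3, 6 without Col0 replicate 2 and 7 without chlm replicate 2 or Col0 replicate 3. The calls of psaA, trnI (ArthCt107) and ndhI were lost in each of these 4 fits, and that of the bin 113001 to 114000 in all but the fit without chlm replicate 3. The call of ycf1 (Arthcp087) was lost without Col0 replicate 3 or chlm replicate 3. That of ndhI, whose libraries overlapped, was also lost without Col0 replicate 1, without a variance trend and with scaling outside the repeat. Leaving out chlm replicate 1 ended the calls of psaA and trnI (ArthCt107), and omitting the variance trend ended that of psaA. Scaling outside the repeat gave 19 higher and 11 lower bins.

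In each line all 17 bins and all 13 genes of the small single copy region had a negative difference from Col0, and this held with centring. With scaling outside the repeat 1 bin of chlm was positive, at 0.01. The lines share the Col0 inputs, so their differences are not independent. Bins lower in all 3 lines were 111001 to 112000, 117001 to 118000 and 123001 to 124000, and the genes were ndhF and rps15. When the spread was estimated with the ChIP libraries of the table, no bin or gene was called in any line. Mean coverage also differed between lines, at 1132 to 1454 in Col0, 1679 to 1956 in sig2-2, 1448 to 3165 in chl27 and 1382 to 2323 in chlm inputs, and its part in the differences was not tested.

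Across the 128 bins the group mean profiles of Day and Night inputs correlated at r = 0.96 (rho = 0.95). Those of the seedling lines correlated with each other at 0.80 to 0.97, chl27 with chlm the highest. Day against Col0 gave r = −0.03 and Night against Col0 0.15, and leaving out the operon bins raised these to 0.28 and 0.45 over 121 bins. Leaf profiles were closest to chlm, at 0.48 for Day and 0.61 for Night. These values describe bins of the same genome, which share base composition and, between groups of a table, its processing. Each input was also set against the mean ChIP profile of its group. In that comparison r was −0.17 to 0.11 in leaves and −0.60 to −0.43 in seedlings. The ChIP libraries of leaves and seedlings held 15.3% to 45.3% of their coverage in the operon, which was low in seedling inputs. Without the operon bins r was −0.33 to −0.14 in leaves and −0.52 to −0.24 in seedlings.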

How the data were processed

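Per the file headers and values, the authors deposited raw per-position coverage (signal, whole numbers) of the plastid genome for 36 libraries in 1 leaf and 1 seedling table, with no scaling to depth. The leaf header names TAIR10 and the seedling header names no build. The submitters' processing notes list TAIR10, Trim Galore 0.4.1, Bowtie2 and bedtools 2.25.0. How duplicates and reads matching both repeat copies were handled is not given in the sources used here. Neighbouring positions share reads, so coverage is not a read count, and no counting interval or count model was used.

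Relative levels were computed per 1 kb bin (128 after merging the repeat copies) and per gene (113), with log2 taken without a pseudocount. The edges of the repeat follow the annotated gene pairs, and coverage mirrored itself within 2 bp in 36 libraries. limma 3.58.1 in R 4.3.3 was fitted to the inputs of each table separately, with a variance trend and Benjamini-Hochberg adjustment at 0.05. Regional measures were compared by exact permutation of libraries. This was two-sided on the difference of means for 3 libraries against 3, and on the between-line sum of squares for all 4 lines. Named features are those of at least 300 bp (genes): the 3 highest and 3 lowest called per comparison, the 5 highest and lowest by level and by leaf minus seedling difference, and a fixed list of 11. The members, lists and rules were chosen with earlier results of these data known. Other tools were Python 3.11.15, numpy 2.4.6, pandas 2.3.3 and matplotlib 3.10.9. The fits were tested on simulated bins that varied independently, with planted differences larger than any called here. That test does not cover differences of the size called here. A result that the naming rule would include is not reported here.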

Additional observations from a re-analysis of the deposited data

How the results depend on the processing

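The repeat share was also taken with the rRNA operon left out of both the repeat and the total, so it covers only the rest of the repeat. On that measure the Night minus Day difference was 0.102 and the between-line part was 54.9% (exact permutation p = 0.0942). With coverage outside the operon as the denominator, the large single copy differences of chl27 and chlm became 0.00347 and 0.00356. The same replicate numbers did not deviate together in every pair. Correlations ran from −0.59 to 0.43 for Night and Day and from −0.46 to 0.78 for the lines and Col0. These values cannot show whether equal numbers mark a shared batch. With a replicate block the test of the small single copy level between lines (78.1% of the sum of squares) gave an exact p = 0.0503, on the other side of the threshold. Called bins under the replicate block were 14 for sig2-2, 25 for chl27 and 52 for chlm, and called genes 7 for Night, 7 for chl27 and 25 for chlm. With the spread shared with the ChIP libraries every comparison called 0 bins and 0 genes. Scaling outside the repeat gave 14 bins for sig2-2, 3 for chl27 and 0 genes for Night and chl27. Centring gave 15 bins for sig2-2 and 0 genes for chl27, and no variance trend 0 genes for Night and chl27. Of 256 bins of 500 bp, 5 were called for Night, 20 for sig2-2, 0 for chl27 and 36 for chlm. Of 64 bins of 2 kb, 35 separated leaves from seedlings, against 64 of 128 bins of 1 kb. With the 62 genes of at least 300 bp alone there were 3 calls for Night and 8 for chl27. For chlm, scaling outside the repeat split the calls into 19 higher and 11 lower bins and 7 higher and 5 lower genes, and centring into 7 and 22 bins and 7 and 12 genes. The cause of these changes was not tested.

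Leaving out 1 library at a time moved the repeat share difference between −0.903 and 0.448 for Night and between −0.522 and 0.166 for sig2-2, where it turned to 0.0962 without Col0 replicate 1. The operon share difference of sig2-2 ran from −0.468 to 0.0462 and was 0.0303 without Col0 replicate 1. The large single copy difference of Night ran from −0.0100 to 0.00505, and was 0.000745 without Night replicate 1 and 0.000767 without Day replicate 1. The between-line part ran from 58.5% to 75.9% for the repeat share, 50.2% to 74.2% for the operon share, 70.1% to 88.0% for the small single copy level and 63.9% to 85.3% for the large. Called bins ran from 0 to 8 for Night, 7 to 15 for sig2-2, 0 to 13 for chl27 and 6 to 35 for chlm. Called genes ran from 0 to 20 for Night, 6 to 19 for sig2-2, 0 to 8 for chl27 and 5 to 17 for chlm. Of the alternatives for single named features, 298 kept direction and side of the threshold, 107 kept direction only and 0 reversed. Alternatives with GC content were not run. The scalings, larger bins and left-out libraries applied to leaf beside seedling values were chosen after seeing the data.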
